A study of Mus musculus with 15 samples.

Results

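The early response of CD8+ T cells to immunofilaments was measured by comparing cells after 8 h of stimulation with cells at 0 h. The comparison holds 6 of the 15 bulk RNA-seq libraries of the study, 3 at 8 h and 3 unstimulated, and every gene tested in them. The libraries were chosen by their labels. Every T cell sample was taken from the spleen and lymph nodes of OT-1 mice, all female, of the strain C57BL/6-Tg(TcraTcrb)1100Mjb, whose transgenic T cell receptor recognises a peptide of ovalbumin on MHC class I. The age of the mice was not given. Immunofilaments (IF) are synthetic filaments. Here they carried SIITFEKL, a variant of that ovalbumin peptide, in MHC together with interleukin-2 (IL-2), and were given at 5 ng/ml to 50000 T cells per well. Viable cells positive for CD8 and negative for CD103 were sorted before RNA extraction. The unstimulated cells had no treatment and no time in culture was given for them, so the effects of the filaments, of their peptide-MHC, of their IL-2 and of 8 h in culture cannot be told apart. Replicates carry the names Don1 to Don3 in each group. Whether a name stands for one animal in both groups was not stated, so p-values measure the spread between these libraries, which may in part be technical. Another group of 3 libraries, stimulated for 8 h with 20000 Flt-3Ligand dendritic cells (DC) per well that carried the same peptide, was used for a direct comparison of both stimuli.

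A T cell receptor that binds peptide-MHC signals through the kinase LCK and the adaptor LAT to calcium and NFAT, to MAP kinases and AP-1, and to NF-κB. IL-2 signals through JAK kinases and STAT5, and its high-affinity receptor chain IL2RA is itself induced by activation. In the hours after contact a naive CD8+ T cell is known to express costimulatory receptors such as 4-1BB, to secrete chemokines, to build feedback inhibitors of each signal, and to prepare ribosomes and metabolic enzymes for growth before it divides.

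The unstimulated libraries held 4957658 to 7958411 counts and the IF 8 h libraries 2892874 to 5572030, so the 8 h group was the shallower one. Mitochondrial genes took 12.3% to 15.9% of counts in the 6 libraries. On the first principal component, with 39.6% of the variance, both groups lay apart. On the second, with 20.2%, IF 8 h replicate 2 lay at −62.3 and replicates 1 and 3 at 20.4 and 42.6, while the unstimulated libraries lay within −1.70 to 2.22. This library was also the shallowest, and it had 26 counts of Foxp3 (chromosome X), the factor of regulatory T cells. Every other one of the 6 libraries had 10 or fewer. Without IF 8 h replicate 2, 9 calls among the genes described below were lost, those of Ccl22, E2f1, Egr2, Elane, Ifnar1, Irf7, Parp14, Sp100 and Usp18. Erdr1, a gene of the pseudoautosomal region that the files place on chromosome Y, varied widely within both groups, at 273.6, 864.8 and 497.2 CPM (counts relative to the library total, scaled as below) in unstimulated replicates 1 to 3 and at 274.9, 369.7 and 1014 CPM at IF 8 h. In each of the other 4 groups of the study, the unstimulated cells among them, replicate 2 was the highest and replicate 1 the lowest, while at IF 8 h it was replicate 3 that was highest. What lies behind this order was not tested, and the comparison of group means does not use the replicate names. The defining markers Cd3e, Cd8a and Cd8b1 were abundant in all 6 libraries and Cd4 had 0 counts in each.

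By edgeR's quasi-likelihood test 840 of 10831 genes (7.76%) differed at a Benjamini-Hochberg adjusted p-value of 0.05, 329 higher (3.04%) and 511 lower (4.72%) at 8 h. Expression is given in CPM, counts relative to the library total after TMM scaling (trimmed mean of M values, which centres most genes on no change), and differences as log2 fold change ± SE. The CPM values of both groups did not overlap for 1537 genes on the higher side (14.2% of all) and 1775 on the lower side (16.4%). These included 322 of the 329 and 508 of the 511 genes called. Most changes were moderate: the median was 1.28 among higher and −1.09 among lower genes. On the higher side 102 genes changed by less than 1, 139 by 1 to 2, 43 by 2 to 3 and 45 by 3 or more. On the lower side these numbers were 229, 186, 52 and 44.

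The direction of the calls changed with the level of the gene. Among 3957 genes with a mean under 10 CPM over the 6 libraries, 82 rose and 66 fell. Between 10 and 100 CPM 202 of 5462 genes rose and 238 fell, and between 100 and 1000 CPM 44 of 1280 rose and 137 fell. Of the 132 genes at 1000 CPM or more, 70 (53.0%) fell and 1 rose. That gene was Srgn (chromosome 10), which encodes serglycin, the proteoglycan of cytotoxic granules. Srgn was at 4325, 3904 and 4413 CPM in unstimulated replicates 1 to 3 and at 8234, 7132 and 7343 CPM at 8 h. The groups lay well apart, with a log2 fold change of 0.85 ± 0.12 (adjusted p 0.000318). The 132 genes had a median log2 fold change of −0.457, and the abundant cytosolic ribosomal protein genes described below one of −0.468. Of those ribosomal protein genes 43 fell, but only 2 when scaled by library size without TMM.

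**Figure D1:**
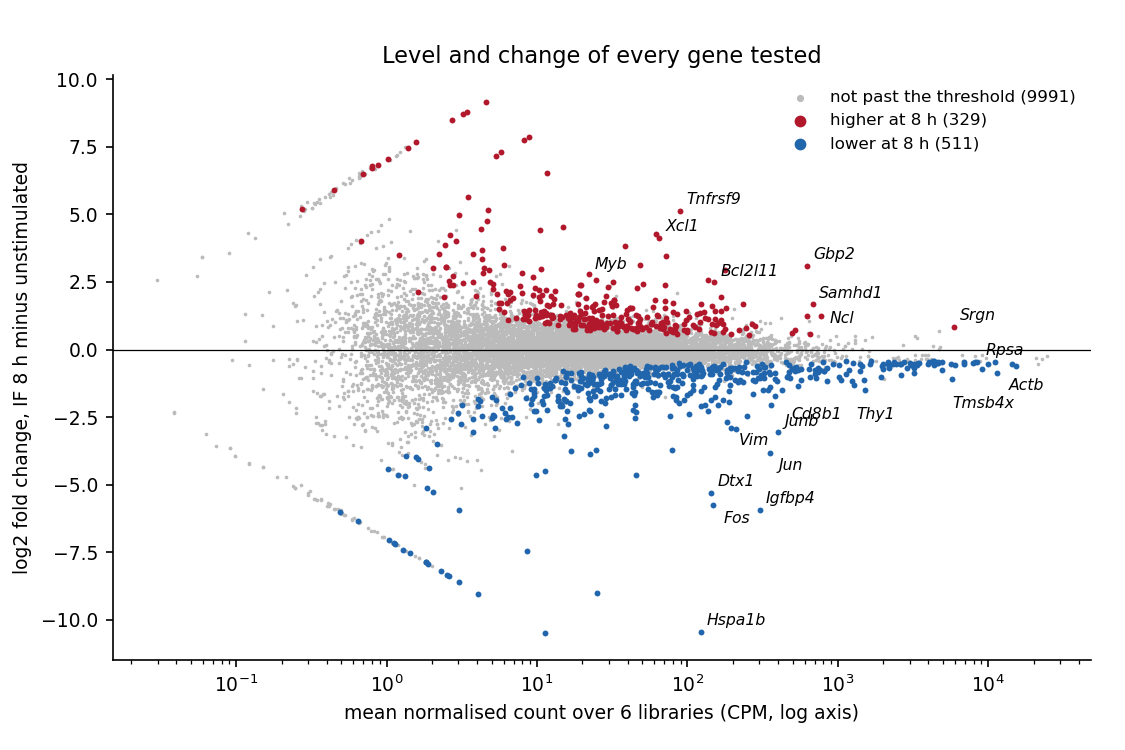
Each point is 1 of the 10831 genes tested, with its mean CPM over the 6 libraries (log axis) against its log2 fold change, IF 8 h minus unstimulated. Red points (329) are higher and blue points (511) lower past the threshold, and at the right end, at 1000 CPM or more, 70 genes are blue and 1, Srgn, is red.

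Scaling sets the level against which these directions are read. The TMM factor lay between 0.857 and 0.872 before stimulation and between 1.01 and 1.04 at IF 8 h. With library size alone the median over all genes was 0.258 in place of 0.0164, and 849 genes were higher and 264 lower. None of the 840 genes had the opposite sign under that scaling, and 593 of them stayed past the threshold in the same direction. Leaving out each library in turn, 271 of the 840 genes passed in all 6 fits, 91 higher and 180 lower, and none changed sign in any fit. Changes described below are relative to the TMM scale.

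Surface receptors of costimulation changed in both directions. Of 19 tested genes of this group 3 rose and 3 fell, against 3.04% and 4.72% of all genes, and their median log2 fold change was 0.30. Scaled by library size alone, 7 rose and 3 fell. Tnfrsf9 (chromosome 4), which encodes 4-1BB, was at 4.99, 6.14 and 3.49 CPM in the unstimulated libraries and at 226.1, 133.9 and 160.5 CPM at 8 h. Every 8 h library was far above every unstimulated one, with a log2 fold change of 5.13 ± 0.64 (adjusted p 0.000107). Icos (chromosome 1), an inducible relative of CD28, had 61.5, 57.5 and 67.0 CPM before and 130.4, 128.3 and 139.3 CPM after stimulation. Its replicates were close together and it rose by 1.10 ± 0.20 (adjusted p 0.00341). Cd28 (chromosome 1), the primary costimulatory receptor, went from 196.7, 148.4 and 211.1 CPM to 411.9, 375.0 and 274.3 CPM (0.93 ± 0.19, adjusted p 0.00766). The 3 members that fell were the adhesion and costimulatory receptors Cd226 (chromosome 18, −1.55 ± 0.21), Cd48 (chromosome 1, −0.98 ± 0.18) and Cd2 (chromosome 3, −0.82 ± 0.15), each past the threshold in all 6 fits without 1 library.

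Inhibitory receptors, listed together with some ligands of such receptors, had a median of 0.52. Of 18 tested genes 3 were higher and 0 lower, against 3.04% and 4.72% of all genes. Leaving out 1 library, 1 to 3 were higher and 0 or 1 lower, and with library size alone 5 were higher. Ctla4 (chromosome 1), which competes with CD28 for its ligands, was at 3.08, 2.89 and 4.19 CPM and then at 16.9, 16.9 and 14.5 CPM, a rise of 2.26 ± 0.28 (adjusted p 0.000107). Pdcd1lg2 (chromosome 19), which encodes the ligand PD-L2, and Cd200 (chromosome 16), which also encodes a ligand, rose by 2.19 ± 0.60 and 2.24 ± 0.56 with adjusted p-values of 0.0367 and 0.0227. Both calls rested on few libraries: each was past the threshold in 1 of the 6 fits without 1 library. Pdcd1 (chromosome 1), which encodes PD-1, stayed between 0 and 3.03 CPM in all 6 libraries and did not pass (0.84 ± 0.94, adjusted p 0.647). Outside this list, Lilrb4 (chromosome 10), an inhibitory immunoglobulin-like receptor, was at 2.50, 2.53 and 0.698 CPM and at 17.3, 13.9 and 10.4 CPM (2.81 ± 0.44, adjusted p 0.000811).

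Among 26 tested cytokine receptor genes 2 rose and 3 fell, so that 19.2% were called against 7.76% of all genes. In fits without 1 library 0 or 1 rose and 1 to 3 fell, fewest without unstimulated replicate 2, and library size alone gave 2 and 1. Il2ra (chromosome 2) was at 1.17, 0.361 and 2.33 CPM at 0 h. At 8 h it was at 34.8, 11.9 and 39.1 CPM, and the lowest of these was well above the highest unstimulated library. The log2 fold change was 4.54 ± 0.97 (adjusted p 0.00961), and the adjusted p-value was 0.0529 without unstimulated replicate 2. Il2rg (chromosome X), the common γ chain, differed by −0.22 ± 0.12 (adjusted p 0.319) at 3202 to 4470 CPM. Ifnar1 (chromosome 16), a chain of the type I interferon receptor, rose by 0.74 ± 0.20 (adjusted p 0.0360) and passed in none of the fits without 1 library. Il4ra (chromosome 7) fell by 0.92 ± 0.19 (adjusted p 0.00763). Of the 36 tested targets of IL-2 and STAT5, 2 rose (Il2ra and Socs1) and 4 fell, Gadd45g, Socs3, Bcl2 and Ccnd3, which is 16.7% called against 7.76% of all genes. Library size alone gave 5 higher and 4 lower, and in 5 of the 6 fits without 1 library 1 rose. Cish (chromosome 9), a direct STAT5 target that restrains IL-2 signalling, was at 4.55, 4.16 and 3.96 CPM against 10.7, 8.95 and 4.02 CPM, and replicate 3 overlapped with the unstimulated range (0.91 ± 0.57, adjusted p 0.361). Pim1 (chromosome 17), another STAT5 target, had 297.8 to 390.9 CPM before and 333.4 to 617.0 CPM after, and did not pass (0.31 ± 0.56, adjusted p 0.787).

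Of 31 tested effector genes 4 rose, the chemokine genes Xcl1, Ccl4 and Cxcl10 and the granule proteoglycan gene Srgn, and 3 fell, Nkg7, Ctsw and Gzma. These are 22.6% against 7.76% of all genes. Xcl1 (chromosome 1), whose product attracts XCR1-bearing dendritic cells, was at 7.63, 5.42 and 7.91 CPM at 0 h and at 159.3, 89.2 and 119.0 CPM at 8 h. Its log2 fold change was 4.13 ± 0.88 (adjusted p 0.00911), and it shares exonic bases with Gm20743. Ccl4 (chromosome 11), a chemokine that attracts other immune cells, was at 38.8, 38.0 and 47.2 CPM and at 397.0, 312.6 and 235.8 CPM, a rise of 2.93 ± 0.60 (adjusted p 0.00742). Both groups lay apart in each of these genes. Cxcl10 (chromosome 5), a ligand of CXCR3, rose by 2.79 ± 0.75 (adjusted p 0.0316), passed in 1 of 6 fits without 1 library, and shares exonic bases with Art3.

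Nkg7 (chromosome 7), a membrane protein of cytotoxic granules, was at 645.0, 596.0 and 506.9 CPM and at 140.6, 138.9 and 137.2 CPM. The 8 h replicates were nearly equal, and it fell by 2.07 ± 0.25 on the log2 scale (adjusted p 7.36e-05). Gzma (chromosome 13), granzyme A, went from 236.9, 218.5 and 255.6 CPM to 70.3, 97.1 and 42.3 CPM (−1.76 ± 0.34, adjusted p 0.00513). Ctsw (chromosome 19), a protease of cytotoxic cells, fell by 1.85 ± 0.16 (adjusted p 3.18e-06) and shares exonic bases with Fibp. Gzmb (chromosome 14), granzyme B, had 146.7, 73.0 and 108.0 CPM against 36.6, 33.2 and 26.8 CPM, lower in every 8 h library, but did not pass (−1.76 ± 0.55, adjusted p 0.0603). Ifng (chromosome 10) had overlapping groups of 10.3 to 23.7 and 3.48 to 13.7 CPM (−0.81 ± 0.94, adjusted p 0.663). In bulk RNA, fewer cells with a transcript and less of it per cell cannot be told apart.

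**Figure D2:**
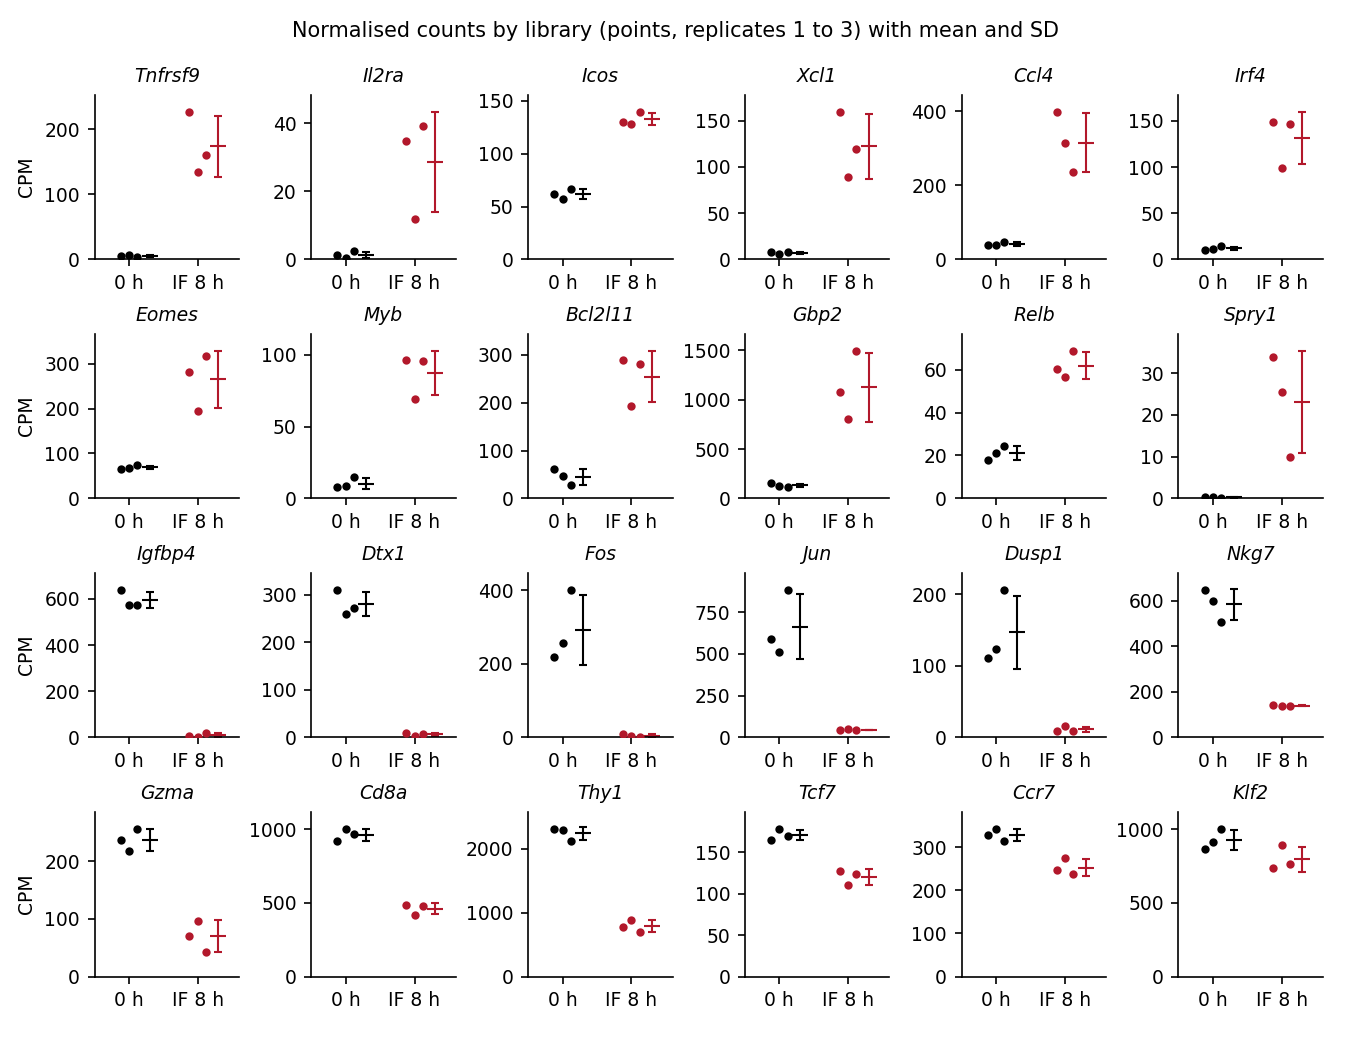
CPM (vertical axes, from 0) of 24 genes in unstimulated replicates 1 to 3 (black) and IF 8 h replicates 1 to 3 (red), with the mean and SD of each group beside the points. The groups lie apart in every panel except Klf2, where they overlap, and in Tcf7 and Ccr7 they lie apart without passing the test.

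Of 30 tested transcription factors of effector lineages 6 rose and 1, Runx1 (chromosome 16, −1.54 ± 0.33, adjusted p 0.0103), fell, against 3.04% and 4.72% of all genes. In fits without 1 library 1 to 5 rose, fewest without unstimulated replicate 1. Irf4 (chromosome 13), which scales with receptor signal strength, was at 10.3, 11.6 and 13.97 CPM and at 148.4, 99.1 and 146.8 CPM. Every 8 h library was above every unstimulated one, with a log2 fold change of 3.47 ± 0.77 (adjusted p 0.0115). It passed in 4 of 6 fits without 1 library, and the adjusted p-value was 0.0567 without unstimulated replicate 1. Eomes (chromosome 9), a T-box factor of effector and memory CD8+ cells, was at 66.1, 68.5 and 73.5 CPM and at 281.4, 195.3 and 317.5 CPM (1.93 ± 0.33, adjusted p 0.00164). Outside this list, Myb (chromosome 10), which keeps memory precursors in a stem-like state, was at 7.63, 8.31 and 14.7 CPM before and at 96.5, 69.3 and 95.4 CPM after (3.12 ± 0.31, adjusted p 9.48e-06). Myb shares exonic bases with Gm26577. Bach2 (chromosome 4), a repressor at AP-1 sites that is also outside this list, rose from 70.0, 60.2 and 44.7 CPM to 190.7, 175.7 and 194.8 CPM (1.68 ± 0.25, adjusted p 0.000482).

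The EGR and NR4A factors are induced within minutes of receptor signalling, and of the 7 of them or of their partners tested 2 rose and 1 fell, so that 42.9% were called against 7.76% of all genes. In 5 of the 6 fits without 1 library 1 rose. Egr2 (chromosome 10) was at 2.94, 4.34 and 14.4 CPM and at 32.8, 39.5 and 53.3 CPM, so the groups lay apart and it rose by 2.58 ± 0.74 (adjusted p 0.0429). The spread of the unstimulated libraries was wide and Egr2 passed in 1 of 6 fits without 1 library. Egr1 (chromosome 18) did not pass at 39.3 to 47.6 against 47.4 to 63.0 CPM (0.33 ± 0.30, adjusted p 0.551), nor did Nr4a1 (chromosome 15) at 20.6 to 37.2 against 40.4 to 69.4 CPM (0.81 ± 0.59, adjusted p 0.439). The EGR partners and corepressors Nab1 and Nab2 moved in opposite directions. Nab2 (chromosome 10) rose by 1.43 ± 0.28 (adjusted p 0.00487) and Nab1 (chromosome 1) fell by 1.18 ± 0.25 (adjusted p 0.0102). Nab2 shares exonic bases with Stat6 and Nemp1. Myc (chromosome 15), a driver of growth, was at 37.7, 33.8 and 40.3 CPM and at 80.3, 47.4 and 49.8 CPM. Every 8 h library was higher, yet the difference of 0.67 ± 0.43 did not pass (adjusted p 0.379). Batf (chromosome 12), an AP-1 partner of IRF4, stayed at 17.4 to 24.7 and 18.7 to 19.6 CPM (−0.16 ± 0.21, adjusted p 0.710).

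NF-κB genes of the non-canonical subunits rose. Of 33 tested genes of the pathway 6 rose and 5 fell, so that 33.3% were called against 7.76% of all genes, with a median of 0.07. With library size alone 8 rose and 1 fell, and 1 to 4 fell in fits without 1 library, fewest without IF 8 h replicate 1. Relb (chromosome 7), a subunit, was at 18.1, 21.1 and 24.4 CPM and at 60.5, 56.4 and 68.6 CPM (1.55 ± 0.19, adjusted p 9.76e-05). Nfkb2 (chromosome 19), the p100 precursor and partner of RELB, was at 73.7, 91.1 and 46.8 CPM and at 202.7, 185.7 and 172.3 CPM (1.40 ± 0.21, adjusted p 0.000517). Nfkbid (chromosome 7), a nuclear regulator of the IκB family, rose by 1.55 ± 0.32 (adjusted p 0.00789). All 3 passed in each fit without 1 library. The inhibitor Tnfaip3 (chromosome 10), the ubiquitin-editing enzyme A20, went the other way, from 96.6, 103.2 and 164.8 CPM to 52.3, 33.8 and 48.0 CPM (−1.44 ± 0.26, adjusted p 0.00261). Nfkbia (chromosome 12), which encodes IκBα, was lower in each 8 h library without passing (−0.41 ± 0.18, adjusted p 0.176).

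Feedback regulators of receptor signalling changed in both directions, 6 of 38 tested higher and 6 lower, so that 31.6% were called against 7.76% of all genes. In fits without 1 library 3 or 4 were higher and 4 to 6 lower. Spry1 (chromosome 3), an inhibitor of the RAS and MAP kinase route, had 4 counts in all unstimulated libraries together and 304 in the IF 8 h libraries, at 33.9, 25.5 and 9.91 CPM. Its log2 fold change was 6.52 ± 0.86 (adjusted p 0.000205), and it shares exonic bases with Gm42922. Cblb (chromosome 16), a ubiquitin ligase that restrains T cell activation, was at 36.1, 35.4 and 40.7 CPM and at 139.0, 116.7 and 111.2 CPM (1.71 ± 0.20, adjusted p 5.34e-05). Ptpn22 (chromosome 3), a phosphatase that acts on LCK, rose by 0.72 ± 0.15 (adjusted p 0.00730). Outside this list, Sh3bp2 (chromosome 5), a signalling adaptor, rose by 2.97 ± 0.63 (adjusted p 0.00863). Against these, Dusp1 (chromosome 17), a MAP kinase phosphatase, went from 111.7, 124.2 and 205.8 CPM to 9.46, 15.6 and 9.11 CPM (−3.71 ± 0.33, adjusted p 4.43e-06). Dusp1 shares exonic bases with Ergic1. Rgs1 (chromosome 1), which dampens chemokine receptor signals, fell by 2.26 ± 0.36 (adjusted p 0.00105), and outside this list Sit1 (chromosome 4), an inhibitory adaptor of the receptor, fell by 3.72 ± 0.37 (adjusted p 9.48e-06). The cytokine inhibitors also diverged: Socs1 (chromosome 16) rose by 0.96 ± 0.23 (adjusted p 0.0189, passing in 2 of 6 fits without 1 library), while Socs3 (chromosome 11) went from 37.1, 29.1 and 39.1 CPM to 10.7, 8.29 and 9.91 CPM (−1.85 ± 0.32, adjusted p 0.00172).

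AP-1 genes are known for an immediate response to MAP kinase signals. Of 16 tested AP-1 and BATF factors 6 fell and 1, Bach2, rose, against 4.72% and 3.04% of all genes, and the median was −0.81. The other 9 did not pass. Fos (chromosome 12) was at 218.6, 257.2 and 399.6 CPM in unstimulated cells and at 8.56, 4.97 and 2.14 CPM at 8 h, with a log2 fold change of −5.74 ± 0.48. Jun (chromosome 4), its dimer partner, was at 591.9, 512.0 and 880.7 CPM and then at 45.9, 47.7 and 45.3 CPM (−3.84 ± 0.45, adjusted p 7.36e-05). Part of its exon is shared with the antisense gene Junos. Junb (chromosome 8) went from 625.6, 753.3 and 777.2 CPM to 105.1, 79.9 and 75.5 CPM (−3.05 ± 0.18, adjusted p 6.14e-08), and shares exonic bases with Prdx2. Jund (chromosome 8) fell by 1.03 ± 0.21 (adjusted p 0.00702). No library of either group overlapped with the other in these 4 genes.

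AP-1 factors also belong to the genes known to be induced while tissue is dissociated. Of 29 tested genes of that list 17 (58.6%) fell and 0 rose, against 4.72% and 3.04% of all genes, with a median of −1.03. Leaving out 1 library gave 15 or 16, and library size alone gave 15. The list's summed level was 7139 to 9275 CPM at 0 h and 4293 to 4704 CPM at 8 h. Whether isolation of the cells has a part in the falls was not tested. Ppp1r15a (chromosome 7), a phosphatase subunit of the stress response, went from 325.3, 353.9 and 438.0 CPM to 64.8, 34.1 and 46.1 CPM (−2.94 ± 0.28, adjusted p 9.21e-06). Zfp36 (chromosome 7), which destabilises cytokine mRNA, went from 140.3, 109.0 and 144.8 CPM to 35.9, 42.4 and 30.01 CPM (−1.87 ± 0.27, adjusted p 0.000394). The heat shock gene Hspa1b (chromosome 17) had 896, 1316 and 1570 counts in the unstimulated libraries and 1, 0 and 1 at 8 h. This is a ratio of 1400 with an exact 95% counting interval of 388 to 11600, which covers counting error only. Hspa1a (chromosome 17), whose sequence is nearly the same, had 754 counts against 1, so the counter could have assigned their reads to one or the other. Klf4 (chromosome 4), an antiproliferative factor, had 284 counts against 1. The constitutive chaperone Hspa8 (chromosome 9) did not pass (0.35 ± 0.24, adjusted p 0.412), nor did Hsp90ab1 (chromosome 17, 0.16 ± 0.22, adjusted p 0.725).

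Of 29 tested genes of the T cell receptor complex and its proximal signalling 11 fell and 0 rose, against 4.72% and 3.04% of all genes. The median was −0.51, and 5 to 8 fell in fits without 1 library, fewest without IF 8 h replicate 3. With library size alone 7 fell. Cd8b1 (chromosome 6), the β chain of the CD8 coreceptor, was at 1901, 1868 and 1707 CPM and at 677.8, 809.9 and 694.7 CPM (−1.33 ± 0.16, adjusted p 9.69e-05). Cd8a (chromosome 6), the α chain, was at 919.4, 999.4 and 970.1 CPM and at 483.1, 419.4 and 480.9 CPM (−1.06 ± 0.13, adjusted p 9.53e-05). Replicates of these 2 genes were close and the groups lay far apart. Cd3e (chromosome 9), a signalling chain of the receptor, fell by 0.91 ± 0.18 (adjusted p 0.00702), and Lck (chromosome 4) by 0.80 ± 0.12 (adjusted p 0.000482). Thy1 (chromosome 9), a surface glycoprotein of T cells, went from 2302, 2288 and 2119 CPM to 769.5, 889.8 and 699.8 CPM (−1.51 ± 0.13, adjusted p 2.4e-06). Cells were sorted on CD8 protein in both groups, and 8 tested T cell markers had a summed level of 8310 to 9040 CPM at 0 h and 4570 to 4770 CPM at 8 h.

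Of 36 tested naive and homing genes 8 fell and 1, Bach2, rose, while 7.76% of all genes were called. The log2 fold change was negative for 27 of the 36, with a median of −0.43. In fits without 1 library 4 to 7 fell, fewest without IF 8 h replicate 1, and library size alone gave 5. Among those that fell, Treml2 (chromosome 17), a surface receptor, differed by −1.86 ± 0.26 (adjusted p 0.000294), Arl4c (chromosome 1), a small GTPase, by −2.45 ± 0.36 (adjusted p 0.000537) and Ramp1 (chromosome 1), a receptor-modifying protein, by −2.41 ± 0.33 (adjusted p 0.000297). Foxo1 (chromosome 3), a factor of quiescence and homing, went from 336.2, 320.8 and 308.2 CPM to 162.5, 203.9 and 169.1 CPM (−0.85 ± 0.19, adjusted p 0.0117), and passed in 4 of 6 fits without 1 library. Several well-known members did not pass. Ccr7 (chromosome 11), which guides cells into lymph nodes, was at 313.5 to 341.8 CPM and at 237.4 to 274.2 CPM (−0.38 ± 0.15, adjusted p 0.141). The quiescence factor Klf2 (chromosome 8) differed by −0.22 ± 0.29 (adjusted p 0.709), Tcf7 (chromosome 11), which encodes TCF1, by −0.50 ± 0.30 (adjusted p 0.336) and Il7r (chromosome 15) by −0.16 ± 0.39 (adjusted p 0.856). With 3 libraries a group and 200 changed genes, all at 5 CPM or more before the change, a simulated 2-fold change was called for 39% and a 4-fold change for 92%. A p-value that misses the threshold therefore does not show that a gene was unchanged.

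Outside that list, Igfbp4 and Dtx1 were among the steepest falls. Igfbp4 (chromosome 11), a binding protein of insulin-like growth factors that is abundant in naive T cells, was at 637.4, 575.6 and 573.3 CPM and at 6.24, 3.32 and 19.8 CPM. Dtx1 (chromosome 5), a ubiquitin ligase of Notch signalling, was at 309.3, 259.5 and 272.3 CPM and at 9.99, 3.65 and 6.97 CPM. Their log2 fold changes were −5.92 ± 0.56 and −5.29 ± 0.38. Among 34 tested antiproliferative genes 7 fell and 2 rose, against 4.72% and 3.04% of all genes. Leaving out 1 library, 3 to 6 fell and 0 or 1 rose, fewest without IF 8 h replicate 1 or 3. Library size alone gave 4 of each. These include Foxo1. Tsc22d3 (chromosome X), a target of FOXO factors and glucocorticoids, fell by 1.76 ± 0.38 (adjusted p 0.00969).

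Of 25 tested genes of the BCL2 family and cell death 1 rose and 2 fell, while 7.76% of all genes were called. Library size alone gave 3 and 1. Bcl2l11 (chromosome 2), which encodes the death-promoting protein BIM, was at 60.5, 46.8 and 27.7 CPM and at 289.7, 193.6 and 280.5 CPM (2.49 ± 0.24, adjusted p 7.68e-06). Bcl2 (chromosome 1), which protects resting cells, was at 320.2, 240.7 and 279.5 CPM and at 97.9, 106.8 and 83.3 CPM (−1.55 ± 0.21, adjusted p 0.000221). The 3 libraries of each group lay apart in both genes, and both passed in all 6 fits without 1 library. Mcl1 (chromosome 3), another protective member, differed by 0.17 ± 0.13 (adjusted p 0.441).

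Of 40 tested actin and tubulin genes 16 fell and 2 rose (median −0.43), and of 26 integrins and adhesion genes 9 fell and 1 rose (median −0.41). Among all genes 4.72% fell and 3.04% rose. Fits without 1 library gave 9 to 15 and 5 to 8 falls, and library size alone gave 10 and 6. Vim (chromosome 2), the intermediate filament vimentin, went from 341.1, 352.6 and 334.2 CPM to 42.5, 61.0 and 33.2 CPM (−2.92 ± 0.22, adjusted p 8.24e-07). Flna (chromosome X), which crosslinks actin, was at 608.5, 639.2 and 642.2 CPM and at 200.7, 276.5 and 184.6 CPM (−1.51 ± 0.18, adjusted p 9.35e-05). Actb (chromosome 5), β-actin, was at 14974, 15117 and 14089 CPM and at 8073, 8271 and 7655 CPM, a fall of 0.88 ± 0.19 (adjusted p 0.0111). Tmsb4x (chromosome X), which binds actin monomers, fell by 1.08 ± 0.17 (adjusted p 0.000769). Among adhesion genes, Lgals1 (chromosome 15), galectin-1, went from 288.2, 348.6 and 306.1 CPM to 49.4, 41.4 and 57.3 CPM (−2.67 ± 0.19, adjusted p 3.49e-07). Itgb7 (chromosome 15), the β7 integrin chain, fell by 1.95 ± 0.23 (adjusted p 7.22e-05) and Itgb2 (chromosome 10), the β2 chain of LFA-1, by 1.14 ± 0.14 (adjusted p 0.000109).

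**Figure D3:**
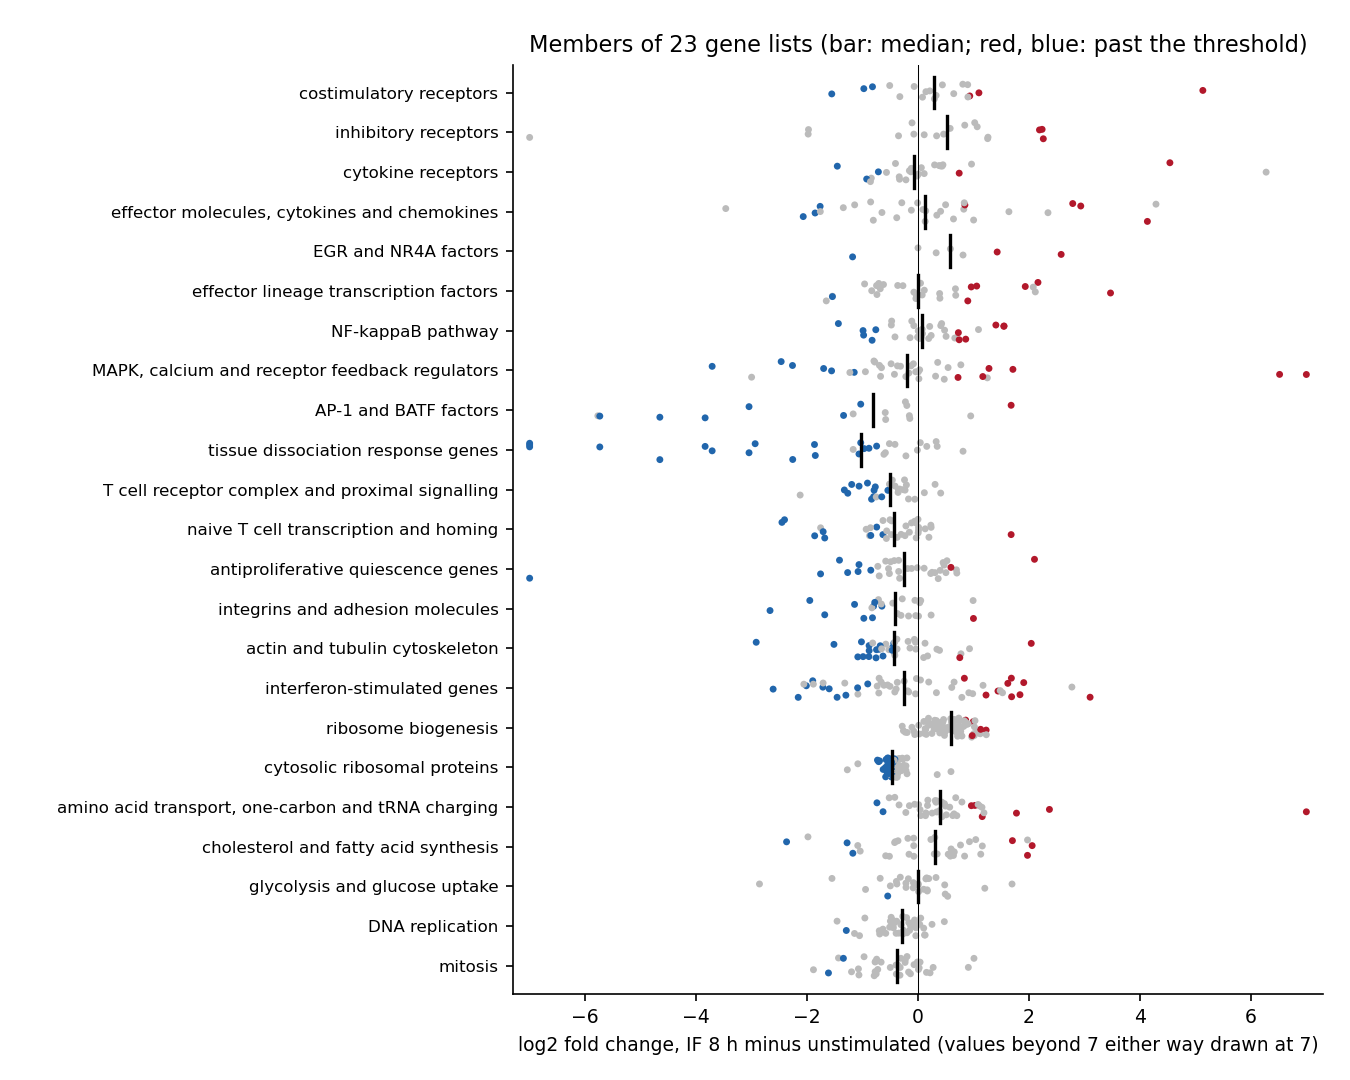
Log2 fold change, IF 8 h minus unstimulated, of each tested member of 23 gene lists (rows), in red where higher and blue where lower past the threshold and grey otherwise, with the list median as a black bar and values beyond 7 drawn at 7. Blue points without red ones fill the rows of tissue dissociation, T cell receptor and cytosolic ribosomal protein genes, while ribosome biogenesis members lie mostly to the right of 0 with few past the threshold.

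Ribosomes are built by nucleolar factors, here called ribosome biogenesis genes, from RNA and ribosomal proteins. Of 79 tested ribosome biogenesis genes 72 had a positive log2 fold change, with a median of 0.59 against 0.0164 for all genes, but 5 rose and 0 fell past the threshold, which is 6.33% called against 7.76% of all genes. The count was 1 to 3 in fits without 1 library, 36 with only both groups in the fit and 16 with library size alone. Ncl (chromosome 1), nucleolin, was at 508.5, 437.2 and 449.2 CPM and at 1068, 1037 and 1162 CPM (1.23 ± 0.27, adjusted p 0.0102), and shares exonic bases with small nucleolar RNAs. Fcf1 (chromosome 12), a factor of small-subunit processing, rose by 0.86 ± 0.18 (adjusted p 0.00863). Of 78 tested cytosolic ribosomal protein genes 43 (55.1%) fell and 0 rose (median −0.47), against 4.72% and 3.04% of all genes. Their share was close to the 53.0% that fell among all genes at 1000 CPM or more. Ribosomal protein genes took 25.9% to 28.0% of all counts at 0 h and 21.8% to 23.4% at 8 h. The count of 43 changed with the scaling and with any library left out. It was 2 with library size alone (median −0.22) and 62 with only both groups in the fit. In fits without 1 library it was 10 to 22, fewest without IF 8 h replicate 3, while the median stayed at −0.499 to −0.432. Rpsa (chromosome 9), a protein of the small subunit, was at 11207, 11709 and 10878 CPM and at 7310, 6611 and 6448 CPM (−0.73 ± 0.12, adjusted p 0.000987). Of 52 translation factors 4 fell and 0 rose, a share of 7.69% that is close to the 7.76% of all genes. Library size alone gave 6 higher and 1 lower, and only both groups in the fit gave 8 and 6. Those that fell include Eef1a1 (chromosome 9, −0.68 ± 0.14, adjusted p 0.00854) and Eef2 (chromosome 10, −0.63 ± 0.14, adjusted p 0.0113).

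**Figure D4:**
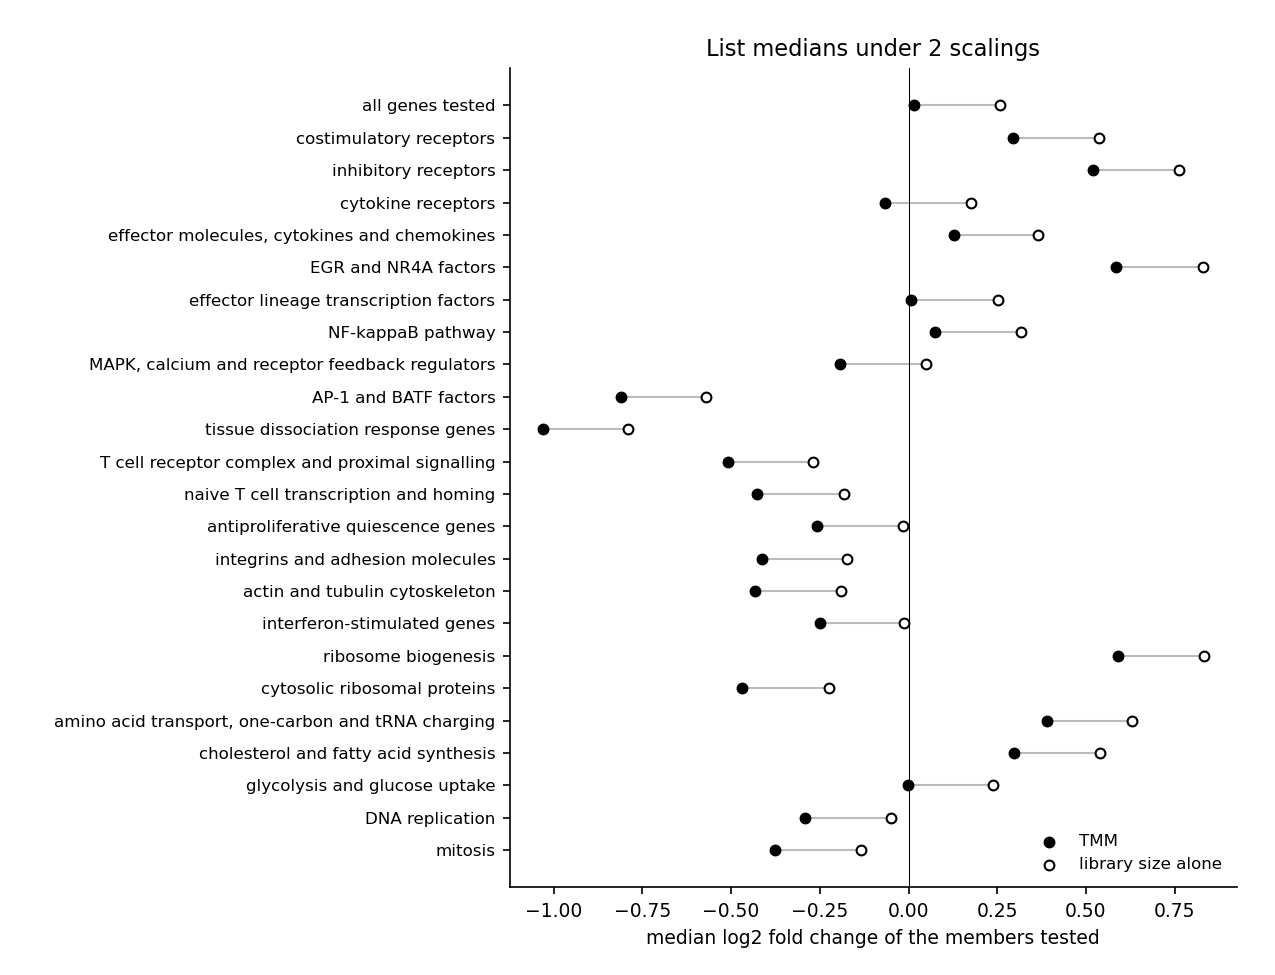
Median log2 fold change of all genes tested and of the members of 23 lists, with TMM scaling (filled) and with library size alone (open). Library size alone moves every list to the right, all genes from 0.0164 to 0.258, and the medians of cytokine receptors, of feedback regulators and of glycolysis cross 0.

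Among 43 tested genes of amino acid transport, one-carbon metabolism and tRNA charging 6 rose and 2 fell (median 0.39), against 3.04% and 4.72% of all genes. In fits without 1 library 1 to 6 rose, fewest without unstimulated replicate 1 or 2, and 0 fell, and with library size alone 15 rose and 0 fell. Wars (chromosome 12), a tRNA synthetase, was at 29.2, 28.7 and 38.6 CPM and at 127.6, 72.3 and 129.1 CPM (1.77 ± 0.39, adjusted p 0.0111). Odc1 (chromosome 12), the first enzyme of polyamine synthesis, rose by 1.16 ± 0.30 (adjusted p 0.0247) and passed in 1 of 6 fits without 1 library. The amino acid transporter Slc7a5 (chromosome 8) was at 24.4, 26.6 and 24.7 CPM and at 70.1, 51.7 and 50.1 CPM, higher in each 8 h library without passing (1.19 ± 0.45, adjusted p 0.118). In cholesterol and fatty acid synthesis 3 of 36 genes rose and 3 fell (16.7% against 7.76% of all genes), and in fits without 1 library 2 to 4 rose and 0 to 2 fell. Library size alone gave 8 and 3. The 3 that rose are enzymes of the sterol pathway: Sqle (chromosome 15, 2.06 ± 0.43, adjusted p 0.00828), Cyp51 (chromosome 5, 1.97 ± 0.46, adjusted p 0.0164) and Sc4mol (chromosome 8, 1.70 ± 0.29, adjusted p 0.00180). Cyp51 passed in 3 of 6 fits without 1 library and shares exonic bases with Akap9. Of those that fell, Scd2 (chromosome 19), a fatty acid desaturase, fell by 2.37 ± 0.52 (adjusted p 0.0110). In glycolysis 0 of 29 genes rose and 1 fell (3.45%). Hk2 (chromosome 6), a hexokinase, was at 3.26 to 4.88 CPM and at 11.2 to 18.8 CPM without passing (1.69 ± 0.68, adjusted p 0.141).

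In DNA replication 0 of 42 tested genes rose and 1 fell (2.38%), and in mitosis 0 of 38 rose and 2 fell (5.26%), against 7.76% called among all genes. The log2 fold change was negative for 35 of the 42 and 30 of the 38. Their medians were −0.292 and −0.376, against 0.0164 for all genes. With library size alone these medians were −0.0503 and −0.134, against 0.258 for all genes. Among G1 cyclins, kinases and E2F factors 1 of 21 rose and 4 fell (23.8%), and in fits without 1 library 0 or 1 rose and 1 to 3 fell, fewest without unstimulated replicate 2 or IF 8 h replicate 3. Mki67 (chromosome 7), a marker of cycling cells, was at 22.6, 19.2 and 26.3 CPM and at 15.7, 23.9 and 20.1 CPM, with overlapping groups (−0.20 ± 0.35, adjusted p 0.788). E2f1 (chromosome 2) fell by 2.51 ± 0.59 (adjusted p 0.0164) and passed in 3 of 6 fits without 1 library. Racgap1 (chromosome 15), a protein of cytokinesis, went from 102.6, 113.0 and 110.1 CPM to 45.7, 44.1 and 38.3 CPM (−1.34 ± 0.25, adjusted p 0.00373). Ccnd3 (chromosome 17), the D3 cyclin, fell by 0.97 ± 0.21 (adjusted p 0.00944) and shares exonic bases with Bysl, and Ccnd2 (chromosome 6) differed by −0.50 ± 0.38 (adjusted p 0.465).

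Interferon-stimulated genes changed in both directions. Of 51 tested genes 9 rose and 10 fell, so that 37.3% were called against 7.76% of all genes, with a median of −0.25. Fits without 1 library gave 6 to 10 higher and 6 to 9 lower, and library size alone gave 15 and 8. The list's summed level was 3490, 4120 and 3620 CPM at 0 h and 6806, 4679 and 8157 CPM at 8 h, highest in IF 8 h replicate 3 and lowest in replicate 2. Gbp2 (chromosome 3), a guanylate-binding GTPase of cell-autonomous defence, was at 152.7, 123.6 and 115.9 CPM and at 1078, 801.3 and 1490 CPM (3.10 ± 0.48, adjusted p 0.000833). Samhd1 (chromosome 2), which breaks down nucleotides needed by retroviruses, was at 313.0, 347.2 and 304.4 CPM and at 1056, 755.9 and 1295 CPM (1.69 ± 0.23, adjusted p 0.000240). Irgm2 (chromosome 11), an immunity-related GTPase, rose by 1.84 ± 0.28 (adjusted p 0.000694) and Gbp8 (chromosome 5) by 1.44 ± 0.22 (adjusted p 0.000769). Irgm2 shares exonic bases with Igtp, and Gbp8 with Gbp4 and Gbp9, so reads can have been counted for either. The other genes that rose were Gbp3 (chromosome 3, 1.91 ± 0.37), Igtp (chromosome 11, 1.68 ± 0.44), Gbp4 (chromosome 5, 1.62 ± 0.35), Ifi47 (chromosome 11, 1.23 ± 0.27) and Parp14 (chromosome 16, 0.84 ± 0.25). Their names and those in the next paragraph were picked after their values were seen.

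Among the 10 genes that fell are antiviral effectors and RNA sensors. The list was not divided by type of interferon, so no share is given for such genes. Oasl1 (chromosome 5) was at 12.9, 22.2 and 18.2 CPM and at 2.14, 2.32 and 4.29 CPM (−2.61 ± 0.44, adjusted p 0.00145). Mx1 (chromosome 16), an antiviral GTPase, was at 17.6, 24.4 and 31.7 CPM and at 6.96, 5.64 and 6.97 CPM (−1.90 ± 0.31, adjusted p 0.00129). Rtp4 (chromosome 16) was at 119.3, 195.2 and 151.8 CPM and at 52.6, 29.2 and 71.3 CPM (−1.60 ± 0.26, adjusted p 0.00101). The groups lay apart in all 3 genes. The RNA sensors Dhx58 (chromosome 11) and Ddx58 (chromosome 4) fell by 2.01 ± 0.42 and 0.91 ± 0.21. The others were Usp18 (chromosome 6, −2.16 ± 0.62), Ifit1 (chromosome 19, −1.71 ± 0.44), Isg20 (chromosome 7, −1.46 ± 0.31), Irf7 (chromosome 7, −1.30 ± 0.30) and Sp100 (chromosome 1, −1.09 ± 0.26).

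**Figure D5:**
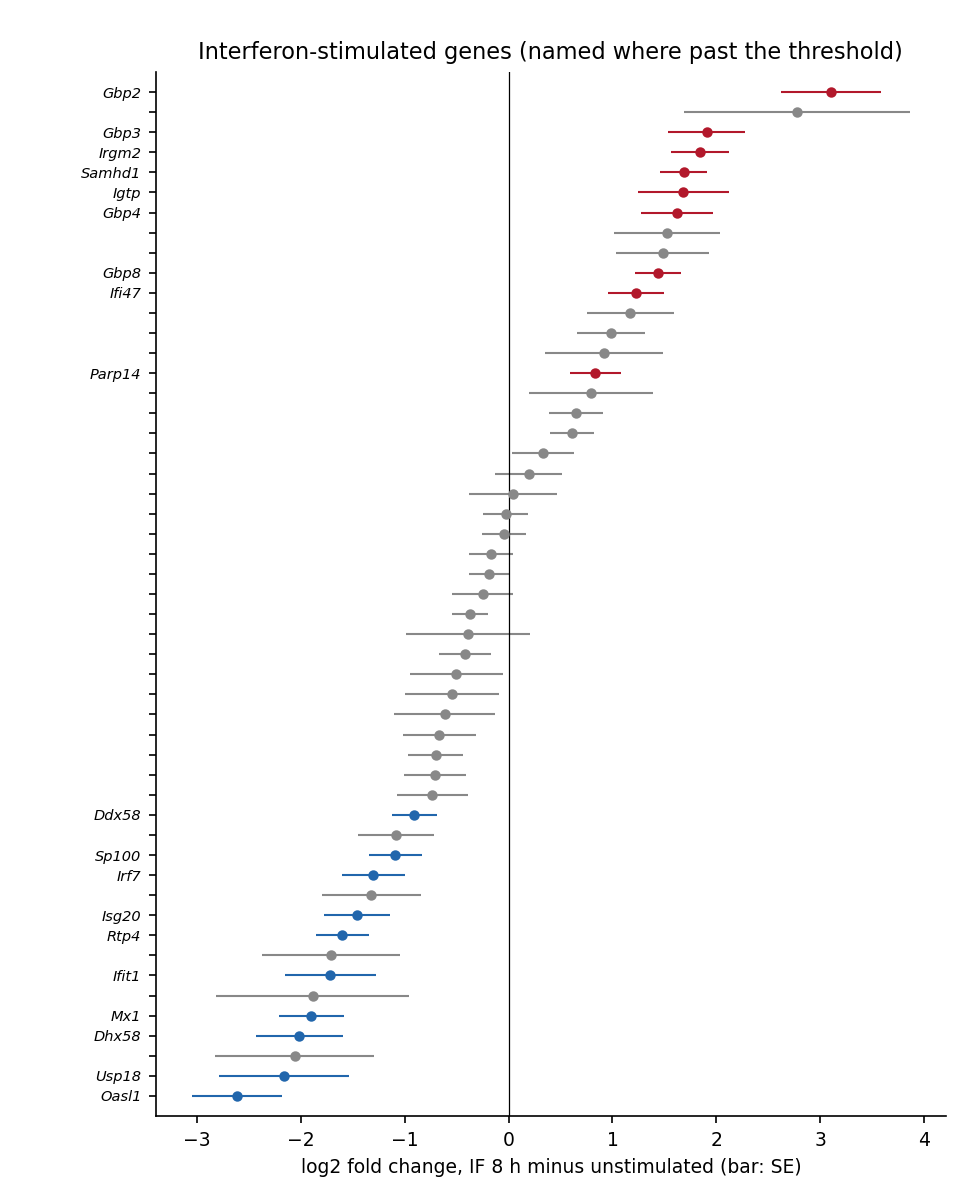
Log2 fold change (points) with SE (bars), IF 8 h minus unstimulated, of the 51 tested interferon-stimulated genes, ordered by value and named where past the threshold, red where higher and blue where lower past the threshold. Gbp2 is at the top at 3.10, and Oasl1 is at the bottom at −2.61.

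Promoters of the genes were searched for known elements. RefSeq (GRCm38.p6, the assembly of the mm10 build) had a promoter entry for 8725 of the 10831 genes, and the 250 bases before each start were searched on both strands. The interferon-stimulated response element, spelled as GAAA, any 2 bases and GAAA again, was in 3.26% of the 8725 genes, in 6.08% of 263 genes that rose and in 5.08% of 394 that fell. Among called interferon-stimulated genes with an entry it was in 4 of 6 that rose and 1 of 6 that fell, and the gamma-activated site described below was in 3 of 6 and 1 of 6. The 30 bases around the matches are shown because they let both directions be compared, each on the plus strand, 5′ to 3′, with the matches in capitals. Matches begin 59 bases before the start in Gbp2, 45 and 39 (overlapping) in Gbp3, 34 in Igtp, 64 in Irgm2, and 104 and 85 in Ifit1. The first 4 genes rose and Ifit1 fell.
Gbp2, chr3:142620594-142620623: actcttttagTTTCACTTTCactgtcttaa
Gbp3, chr3:142559992-142560021: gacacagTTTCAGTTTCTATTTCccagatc
Igtp, chr11:58199512-58199541: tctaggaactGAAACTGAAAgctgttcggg
Irgm2, chr11:58214903-58214932: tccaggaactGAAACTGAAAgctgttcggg
Ifit1, chr19:34640785-34640814: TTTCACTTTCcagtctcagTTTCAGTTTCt

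The same search gave TTCNNNGAA, the gamma-activated site, in 7.17% of all genes, 9.51% of those that rose and 7.11% of those that fell. For NF-κB (GGG, any 2 bases and TTTCC) the shares were 1.86%, 3.04% and 1.27%, for TGANTCA (AP-1) 4.97%, 5.70% and 4.31%, and for CACGTG (E-box) 10.3%, 10.6% and 11.2%. For TGACGTCA (cAMP response element) they were 3.30%, 2.28% and 2.54%. The serum response element (CCATAT, any base and AGG) and the heat shock element (GAA, TTC and GAA, each 2 bases apart) were in 7 and 39 of the 8725 genes. Matches can overlap between elements, and each share only describes letters in these windows.

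Some genes were near absent in one group. At most 3 counts in every unstimulated library were found for 25 genes that rose, and at most 3 in every IF 8 h library for 30 that fell. With 0 counts in a group, folds are lower bounds set against 3 counts over that group. Trib3 (chromosome 2), a pseudokinase induced by amino acid stress, had 0 counts in each unstimulated library and 27, 53 and 19 at 8 h, at least 44.5-fold higher. Tnip3 (chromosome 6), an inhibitor of NF-κB signalling, had 0 and then 47, 22 and 14 counts, at least 37.3-fold higher, and Tbc1d30 (chromosome 10) was at least 35.9-fold higher. Rgs16 (chromosome 1), a regulator of G protein signalling, had 1 count against 123, 27 and 81, a ratio of 311 with a counting interval of 55.3 to 12300, and shares exonic bases with Gm28513. Bcat1 (chromosome 6), which transfers amino groups of branched-chain amino acids, had 1 count against 67, 11 and 60, a ratio of 186 (32.8 to 7400). Utf1 (chromosome 7), a chromatin factor of embryonic cells, was at 1.47, 1.08 and 0 CPM and at 21.9, 18.2 and 19.8 CPM (4.41 ± 0.61, adjusted p 0.000294).

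Some transcripts with 0 counts at 8 h are known from other cell types. Car1 (chromosome 3), carbonic anhydrase 1 of red cell precursors, had 153, 75 and 137 counts at 0 h and 0 in every IF 8 h library, at least 90.3-fold lower. The granulocyte protease Elane (chromosome 10) had 34, 23 and 28 counts and then 0, at least 21.0-fold lower, and passed in none of the 6 fits without 1 library. The 8 neutrophil markers summed to 5.06 to 15.1 CPM at 0 h and 6.60 to 13.6 CPM at 8 h, so that the groups overlapped. Most of the 8 h sum came from Cxcr2, at 4.70, 3.98 and 1.16 CPM at 0 h and 5.17, 12.6 and 8.04 CPM at 8 h. Of the 8 markers 4 had 0 counts in every IF 8 h library, against 1 in every unstimulated library. The summed level of 8 erythroid and platelet markers was 34.9 to 82.6 CPM at 0 h and 8.95 to 9.99 CPM at 8 h. For 20 dendritic cell markers it was 509 to 1290 CPM and 157 to 393 CPM, with Zbtb46 at 0 counts in all 6 libraries. Of the 16 of these tested, 1 rose and 4 fell, so that 31.2% were called against 7.76% of all genes. The gene called higher was the chemokine gene Ccl22 (chromosome 8, 4.02 ± 1.19, adjusted p 0.0493), with 1, 0 and 0 counts at 0 h and 5, 9 and 0 at 8 h. Its groups overlapped, and it passed in 1 of 6 fits without 1 library, the one without IF 8 h replicate 3. The 4 that fell are all of MHC class II: H2-Ab1 (chromosome 17) from 155.8, 137.0 and 391.5 CPM to 31.8, 76.6 and 32.7 CPM (−2.29 ± 0.44, adjusted p 0.00423), H2-Eb1 (chromosome 17, −2.09 ± 0.50), Cd74 (chromosome 18, −1.58 ± 0.41) and H2-Aa (chromosome 17, −1.40 ± 0.39). H2-Ab1 passed in all 6 fits without 1 library, H2-Eb1 and Cd74 in 3 and H2-Aa in 2. In all 4 genes the highest 8 h value was that of IF 8 h replicate 2 and the highest unstimulated value that of replicate 3. The 11 B cell markers summed to 28.6 to 30.7 CPM and to 11.6 to 46.7 CPM. The part of other cells in the unstimulated libraries in any other fall was not tested.

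IF 8 h was also compared with cells stimulated by dendritic cells for the same time. In this direct comparison 72 of 10831 genes (0.665%) differed, 25 higher and 47 lower with IF. Of the 840 genes changed at IF 8 h, 32 (3.81%) differed from DC. Both comparisons use the IF 8 h libraries, so that their calls are not independent. Itm2a (chromosome X), a membrane protein of activated T cells, was at 263.9, 197.3 and 235.8 CPM with IF and at 32.9, 36.9 and 48.6 CPM in unstimulated cells (2.56 ± 0.28, adjusted p 2.55e-05), and it was higher than with DC by 2.34 log2 units. Myb was higher than with DC by 2.02 and Cd28 by 1.44, while Socs3, Gadd45g and Cish had log2 fold changes of −2.41, −2.94 and −3.004 against DC. Of the interferon-stimulated genes that fell, Oasl1, Mx1, Rtp4, Dhx58 and Irf7 were also lower than with DC. None of Tnfrsf9, Il2ra, Irf4, Egr2, Ctla4, Socs1 and Ncl, which rose at IF 8 h, differed from DC past the threshold.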

How the data were processed

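The authors deposited 1 table of raw counts per gene for each of the 15 libraries. CD8+ T cell RNA was sequenced by an adapted CEL-seq protocol, per the labels' protocols, and BWA and the build mm10 are named in the submitters' processing notes. The counting tool, the annotation, the use of strand and of molecular identifiers are not given in the sources used here. Without strand, reads of overlapping genes cannot be told apart.

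The tables held 17493 genes, 370 of them with no count. Tests used edgeR 4.0.16 in R 4.3.3: 5 group means over all 15 libraries, so that all groups share 1 estimate of the spread, TMM scaling, a low-count filter (minimum count 10, minimum total 15), the quasi-likelihood test and Benjamini-Hochberg adjustment over 10831 genes with a threshold of 0.05. Fold changes used a prior count of 0.125. Intervals on count ratios are exact 95% ones. No 2 replicates agreed within sampling noise (chi-square per degree of freedom 9.50 to 15.2). On simulated counts with 200 changed genes, 39% of 2-fold and 92% of 4-fold changes were recovered and 5.07% of calls were genes left unchanged. The changed genes were drawn from those at 5 CPM or more in unstimulated cells, and all other genes were set equal in every group. These shares do not cover genes at lower levels or a response with more changed genes.

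The gene lists and the comparison were chosen with earlier results of these data known. Named genes are the 15 highest and 15 lowest changes with at least 50 mean counts and no overlap between groups, the 4 with the smallest p-value and 2 most abundant of each list, the 15 most abundant called genes, 10 near absent in one group in each direction, a panel of 32, and the 5 highest and 5 lowest against DC. Text names those that describe each group.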

Additional observations from a re-analysis of the deposited data

Results flagged for a closer look

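Some genes described above differed between the 2 stimuli at 8 h in the direct test, IF 8 h minus DC 8 h, with log2 fold changes and adjusted p-values from the same edgeR quasi-likelihood fit. Higher with IF were the feedback inhibitor Spry1 (4.06 ± 0.65, adjusted p 0.00593), Ccl4 (2.88 ± 0.60, adjusted p 0.0333), Itm2a (2.34 ± 0.27, adjusted p 0.00101), Myb (2.02 ± 0.28, adjusted p 0.00144), Cd28 (1.44 ± 0.19, adjusted p 0.00123) and Srgn (0.66 ± 0.12, adjusted p 0.0126).

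Lower with IF were regulators of cytokine and stress signals: Cish (−3.004 ± 0.52), Gadd45g (−2.94 ± 0.38), Socs3 (−2.41 ± 0.32), Nfkbia (−1.02 ± 0.18), Junb (−1.19 ± 0.17) and Batf (−0.96 ± 0.21). The resting-cell genes Igfbp4 (−3.79 ± 0.52) and Dtx1 (−2.82 ± 0.35) and the granule protease gene Ctsw (−0.71 ± 0.16) were lower as well. Among interferon-stimulated genes the values were −2.51 ± 0.43 for Oasl1, −2.02 ± 0.42 for Dhx58, −1.56 ± 0.25 for Rtp4, −1.51 ± 0.31 for Mx1 and −1.35 ± 0.30 for Irf7. Genes that dendritic cells also express were lower with IF, by −3.56 ± 0.68 in Ccl22, −2.56 ± 0.51 in H2-Eb1 and −1.89 ± 0.41 in Cd74. Dendritic cells were present in the culture of 1 of the 2 groups, and their part in these differences was not tested.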

How the results depend on the processing

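The number of genes called, 840 (329 higher, 511 lower), was 419 to 573 when 1 library was left out, with 149 to 227 higher and 256 to 346 lower. It was 1269 with DESeq2 (525 higher), 1299 with only both groups in the fit (560 higher) and 267 at a threshold of 0.01 (92 higher, 175 lower). Without a low-count filter 543 genes were higher. With library size alone 849 were higher and 264 lower. The 72 genes that differed between IF and DC at 8 h became 215 without the filter, 195 with DESeq2, 47 with only both groups, 25 at 0.01 and 27 to 52 without 1 library.

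Besides Erdr1 and Cxcr2, 141 genes were described and 119 of them were called. None of these changed sign under any setting. Leaving out 1 library ended 9 calls (without IF 8 h replicate 2) to 21 (without IF 8 h replicate 3), and library size alone ended 6. Genes not called changed sign in 6 cases. With library size alone the log2 fold change was 0.0867 for Batf, 0.0231 for Il2rg, 0.0904 for Il7r, 0.0259 for Klf2 and 0.0473 for Mki67. In fits without 1 library it ranged from −0.285 to 0.00771 for Il7r, above 0 without unstimulated replicate 1.

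The labels do not say that a replicate number is 1 mouse. Same-numbered unstimulated and IF 8 h libraries did not deviate together (correlations 0.0164, −0.011 and −0.0116), while those of DC 8 h and DC 22 h did (0.116, 0.399 and 0.238). With the replicate number as a block 767 genes were called against 840, and 54 against 72 for IF and DC. Among the genes described the block ended the calls of Ccl22, H2-Aa and Usp18 and added 1, Gzmb. The order of Erdr1 by number at IF 8 h differed from that of the other groups, so what the numbers share there is not known.

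With 3 libraries a group of 2892874 to 7958411 counts, simulated 2-fold changes were often missed, and genes under 10 CPM rest on few counts.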
